A study of Mus musculus with 19 samples.

Results

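The small heat shock proteins of muscle are represented here by 7 genes, Hspb1, Cryab, Hspb2, Hspb3, Hspb6, Hspb7 and Hspb8, out of 27793 gene names on a 1-colour Agilent whole mouse genome array. They were taken as every probe annotated to one of these symbols, which gave 10 of the 41174 probes. Cryab, Hspb2 and Hspb7 each have a brighter and a dimmer probe, and the other 4 genes have 1 probe. Gene expression was measured on 19 arrays in 4 groups. C2C12 cells, a mouse myoblast line, carried empty plasmids (WT, 6 arrays) or plasmids for human wild-type HDAC4 and HDAC5, class IIa histone deacetylases (HDAC4&5, 6 arrays). All of these cells had been selected with both hygromycin B and geneticin at 500 µg/ml, had stable expression after repeated selection, and were harvested as myoblasts 48 h after seeding. Soleus muscle, a slow postural muscle of the leg, came from male C57BL6J mice aged 12 weeks and fasted for 5 h, which were heterozygous littermates (Con, db -/+, 3 arrays) or db/db mice (db, db +/+, 4 arrays). The db/db mouse lacks a working leptin receptor and is obese and diabetic. The study's methods call replicates separate dishes or mice and give 3 per group, while 6 arrays per cell group were deposited, and the labels do not say whether some of these repeat a sample. The errors and p-values for the cells therefore measure the spread between arrays, which may in part be technical, and do not include that between independent selections.

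Small heat shock proteins are chaperones with a conserved alpha-crystallin domain that bind unfolding proteins and hold them until ATP-dependent chaperones of the HSP70 family can act. Hspb1 (HSP27) and Cryab (alpha-B-crystallin) are widely expressed and stress-inducible, and both protect desmin and other filaments in muscle. Hspb2 and Hspb3 form a complex of their own in muscle, Hspb6 (HSP20) is a target of cyclic AMP-dependent kinase, Hspb7 is a cardiac and skeletal muscle member that binds filamin C, and Hspb8 (HSP22) works with the co-chaperone BAG3 in the clearance of damaged sarcomere proteins. Heat shock factor 1 acts on inducible members through heat shock elements, and several members are under the control of myogenic factors such as MyoD and MEF2. Class IIa deacetylases bind MEF2 factors and repress their target genes.

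To show what lies in front of these genes, the 250 bases before the start site are given for 4 of them, 3 that fell and 1 that rose in the HDAC4&5 cells. RefSeq promoters on GRCm38.p6 were at hand for 5 of the 7 genes. Capitals mark a heat shock element searched as GAANNTTC or TTCNNGAA, an E-box of the letters CAGCTG, or a motif of MEF2, each searched on both strands. They also mark a TATA box, which was searched as TATAAA, likewise on both strands. The Hspb1 promoter (chr5:135887669-135887918, plus strand) has 2 matches to GAANNTTC, at positions -117 to -110 and -97 to -90 from the start site. The second of 2 Hspb6 promoters (chr7:30553051-30553300, plus strand) has 1 match at -120 to -113 and a TATA box at -29 to -24. In the Hspb3 promoter (chr13:113663677-113663926, minus strand) a GAANNTTC match lies at -224 to -217, and a MEF2 motif at -12 to -3 that overlaps a TATA box. The Hspb8 promoter (chr5:116422865-116423114, minus strand) has no match to any of these. Nor do the promoter of Hspb7, a gene that fell, and the first Hspb6 promoter, which are not printed, so genes with and without a match were among those that fell.
Hspb1: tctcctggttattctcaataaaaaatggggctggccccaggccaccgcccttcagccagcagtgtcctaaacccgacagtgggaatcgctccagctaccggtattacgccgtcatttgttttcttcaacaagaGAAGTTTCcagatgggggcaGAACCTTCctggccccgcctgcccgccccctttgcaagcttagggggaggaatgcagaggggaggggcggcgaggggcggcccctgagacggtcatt
Hspb6: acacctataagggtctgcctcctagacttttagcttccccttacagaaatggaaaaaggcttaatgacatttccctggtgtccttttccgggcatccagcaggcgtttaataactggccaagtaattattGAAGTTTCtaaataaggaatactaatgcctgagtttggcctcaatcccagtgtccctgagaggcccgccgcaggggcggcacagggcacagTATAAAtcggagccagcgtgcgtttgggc
Hspb3: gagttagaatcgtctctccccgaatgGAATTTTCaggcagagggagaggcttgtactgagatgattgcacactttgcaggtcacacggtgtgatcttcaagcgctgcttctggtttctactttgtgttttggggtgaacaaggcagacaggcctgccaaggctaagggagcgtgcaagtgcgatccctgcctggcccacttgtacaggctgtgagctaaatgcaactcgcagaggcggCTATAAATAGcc
Hspb8: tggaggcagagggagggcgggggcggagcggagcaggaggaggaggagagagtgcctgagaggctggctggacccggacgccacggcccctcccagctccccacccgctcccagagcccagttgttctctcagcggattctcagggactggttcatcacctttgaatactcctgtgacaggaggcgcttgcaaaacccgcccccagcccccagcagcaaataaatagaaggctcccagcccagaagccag

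Of 32851 promoter windows of this length, 6.69% held GAANNTTC and 7.17% held TTCNNGAA. The E-box CAGCTG was in 13% of them, the TATA box in 12.4% and the MEF2 motif in 2.92%. A match is a string of letters in the window and not a measured site.

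Levels are given as the log2 of the processed spot intensity minus the 75th percentile of the array, here called the relative log2 level, so that 0 is the 75th percentile. They are compared for each probe between groups and never between probes. The 75th percentile was 494 to 1691 intensity units on the C2C12 arrays, 153 to 232 on the 4 soleus arrays of slide 4 and 555 to 686 on the 3 of slide 5. The C2C12 arrays lay on slides 1 to 3, each with 2 arrays of both groups, and both soleus slides held both groups. Spots marked as outliers made up 7.30% of db replicate 3 and 0.348% to 3.08% of the other arrays, and without that array no member was called in soleus either. All 10 skeletal muscle markers were well above background on every WT array, and 4 to 7 of them on the HDAC4&5 arrays, with Myod1 and Ckm at 0 of 6 arrays. The summed marker level, in multiples of the 75th percentile, was 148 to 248 on WT and 1.59 to 1.96 on HDAC4&5 arrays. Des, Cdh15, Acta1 and Mylpf were above background on all 6 HDAC4&5 arrays. Both groups are called myoblasts, and in the HDAC4&5 cells the defining factor Myod1 was not detected above background. All 10 were well above background on every soleus array, with a summed level of 718 to 1887 for Con and 619 to 1541 for db. The spots of Acta1, Myh8, Mylpf and Tnnt3 were saturated on all soleus arrays where they were measured, which limits these sums. The probe of mouse Hdac4 had a mean relative log2 level of 0.28 on WT and 0.23 on HDAC4&5 arrays, and that of Hdac5 2.19 and 3.60. Whether these mouse probes read the human transgenes was not tested.

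**Figure D1:**
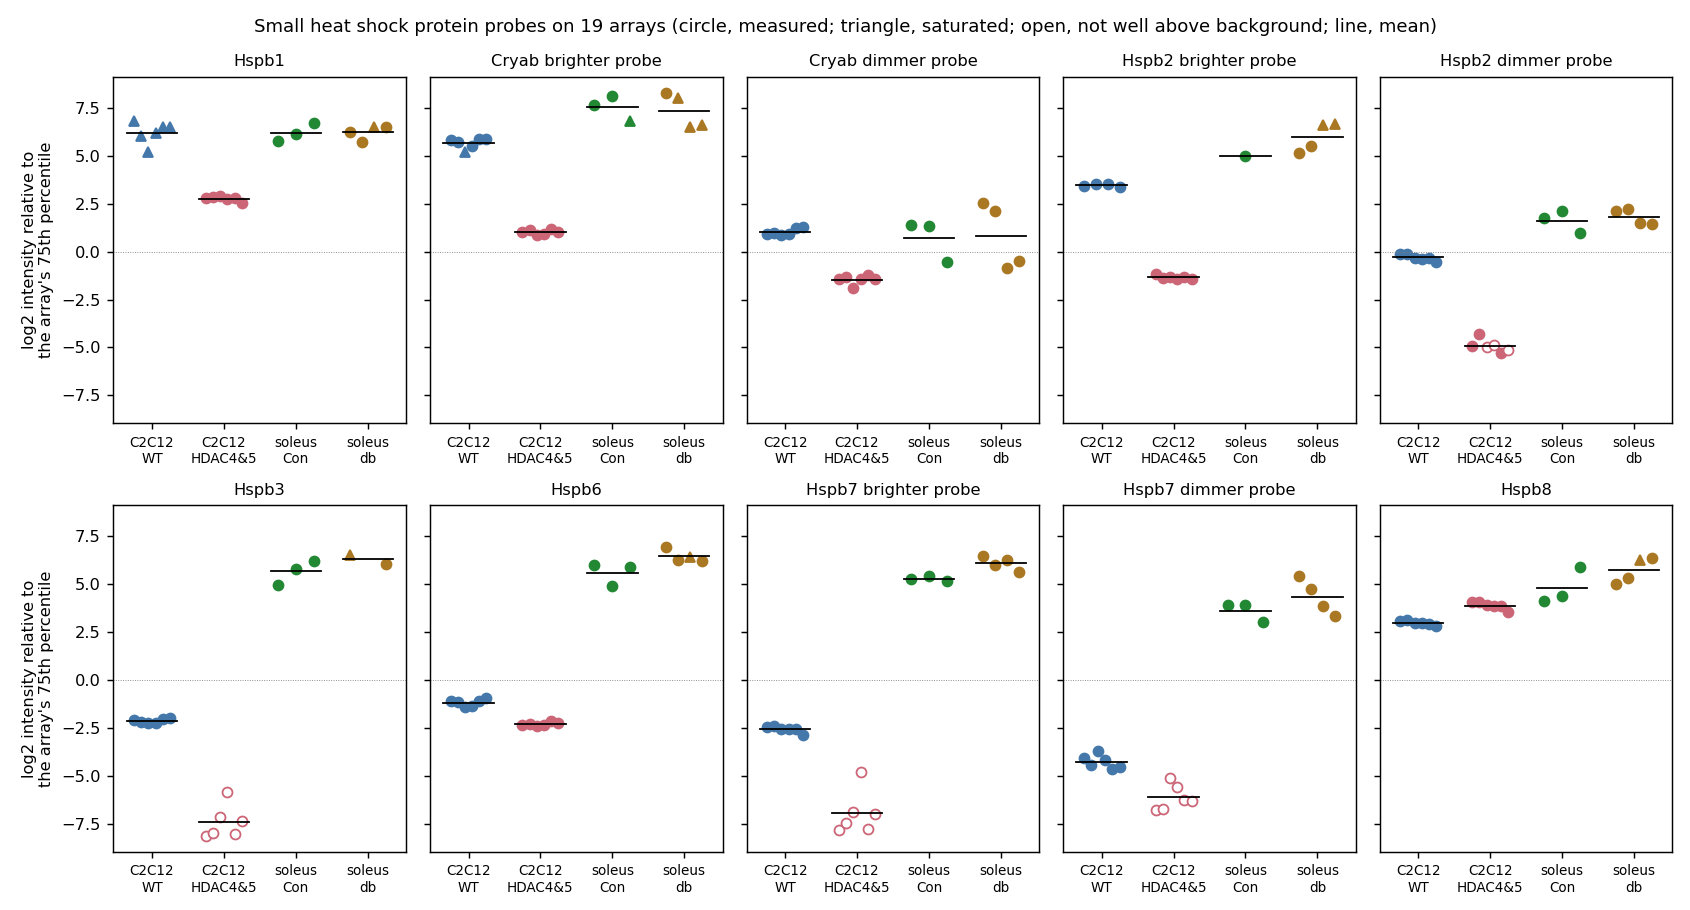
Relative log2 level (vertical axis) of each of the 10 probes, 1 panel per probe, with 1 point per array in the 4 groups and a line at the group mean. Triangles are saturated spots and open points are not well above background. The HDAC4&5 points lie below the WT points in 9 panels and above them for Hspb8.

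The question of the first comparison was how overexpression of HDAC4 and 5 alters the C2C12 transcriptome. Of the 7 genes, 6 fell in the HDAC4&5 cells: Hspb1, Cryab, Hspb2, Hspb3, Hspb6 and Hspb7. Hspb2 and Cryab, measured above background in both groups, fell 27.9-fold and 24.8-fold and Hspb6 2.17-fold, while Hspb1, Hspb3 and Hspb7 have only lower bounds and no place in that order. Hspb8 rose 1.87-fold. All 7 passed an adjusted p of 0.05 in limma, as did all 10 probes, and for each probe the groups of 6 arrays did not overlap (for the brighter Hspb2 probe, 6 arrays against 4). Hspb3, both Hspb7 probes and the dimmer Hspb2 probe entered the test through the WT group alone. By the brighter or single probe, 5 members were above background in both groups. Over all 21477 probes tested, 31.8% fell and 36.5% rose at this threshold, and 25% were lower and 27.4% higher with no overlap between the groups. The median log2 difference over all probes was 0.055, and 5% of probes lay below -2.21. For 5 of the 6 genes that fell, the log2 difference of the brighter or single probe was below that value, while that of Hspb6 (-1.12) and of Hspb8 (0.90) lay within the central range. In these bulk samples fewer cells of a type and less RNA per cell cannot be told apart.

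Among the widely expressed members, the Hspb1 probe (mm9 chromosome 5, 136364927 to 136365114, plus strand) had relative log2 levels of 5.23, 6.34 and 6.82 (lowest, median, highest) on WT arrays. On HDAC4&5 arrays they were 2.55, 2.81 and 2.89. The lowest WT array lay over 2 log2 units above the highest HDAC4&5 array. The spot was saturated on all 6 WT arrays, so Hspb1 was at least 10.8-fold lower in HDAC4&5 cells (log2 difference -3.44 ± 0.21 SE, adjusted p = 8.83e-09, limma). Cryab, the alpha-B-crystallin gene, was read by a brighter probe (mm9 chromosome 9, 50564440 to 50564499, plus strand) and a dimmer probe (50561281 to 50561340). The brighter probe read 5.20, 5.77 and 5.87 on WT and 0.90, 1.04 and 1.18 on HDAC4&5 arrays. This was a 24.8-fold fall (log2 difference -4.63 ± 0.11 SE, adjusted p = 6.92e-13), with 1 WT array saturated. The dimmer probe fell less, by 5.63-fold, from a median of 0.96 to -1.42 (log2 difference -2.49 ± 0.11 SE). Both Cryab probes thus fell on every slide, but by unequal amounts, and the cause of that inequality was not tested.

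Hspb2 and Hspb3, the partners in a muscle complex, both fell. The brighter Hspb2 probe (mm9 chromosome 9, 50559211 to 50559270, minus strand) had relative log2 levels of 3.41, 3.51, 3.53 and 3.39 on WT replicates 1 to 4. The spots of WT replicates 5 and 6 carried the scanner's outlier mark and were left out (3.53 and 3.42 when kept). On HDAC4&5 arrays it read -1.45, -1.34 and -1.19, which was 27.9-fold lower (log2 difference -4.80 ± 0.06 SE, adjusted p = 1.65e-13). The dimmer Hspb2 probe (50559674 to 50559733) had all 6 WT arrays and fell by nearly as much, 24.5-fold (log2 difference -4.62 ± 0.14 SE), though it was well above background on 3 of 6 HDAC4&5 arrays. The Hspb3 probe (mm9 chromosome 13, 114453139 to 114453198, minus strand) read -2.24, -2.13 and -1.98 on WT arrays and -8.14, -7.65 and -5.87 on HDAC4&5 arrays. It was not well above background on any HDAC4&5 array. Set against the detection floor of those arrays, which is the dimmest signal that was still well above background, Hspb3 was at least 9.52-fold lower (fitted log2 difference -5.30, adjusted p = 7.01e-09). Such bounds were used here for each probe below background throughout a group. They set the mean of the brighter group against that floor, or against the probe's own level where this was higher. A spot can lie above the floor and still not be well above background. The dimmer Hspb2 probe did so on HDAC4&5 replicate 3, at -5.00 against a floor of -5.06. The bounds are thus relative to this floor and this background correction, and are not strict limits.

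Hspb7, the filamin C partner, was likewise lost from detection. The brighter probe (mm9 chromosome 4, 140980355 to 140980414, plus strand), printed as 10 spots per array, read -2.85, -2.56 and -2.42 on WT and -7.82, -7.22 and -4.78 on HDAC4&5 arrays. It was well above background on 6 of 6 WT arrays and 0 of 6 HDAC4&5 arrays, and Hspb7 was at least 6.98-fold lower (fitted log2 difference -4.39 ± 0.42 SE, adjusted p = 8.10e-07). The dimmer probe (140979914 to 140979973) also went from 6 to 0 arrays above background and was at least 2.16-fold lower (adjusted p = 4.64e-05). With another background correction (normexp with an offset of 50) the log2 differences of these dim probes shrank, to -0.91 for the brighter Hspb7 probe (adjusted p = 0.0432), 0.062 for the dimmer one (adjusted p = 0.878) and -1.35 for Hspb3 (adjusted p = 0.00561). That of the dimmer Hspb2 probe became -2.41. The normexp differences of Hspb3 and Hspb7 fall short of the bounds given above, which hold for the main processing only.

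Hspb6, the target of cyclic AMP-dependent kinase, changed least among the genes that fell. Its probe (mm9 chromosome 7, 31339385 to 31339528, plus strand) read -1.43, -1.15 and -0.95 on WT and -2.41, -2.32 and -2.16 on HDAC4&5 arrays. All 12 arrays were above background and the groups lay apart by a fall of 2.17-fold (log2 difference -1.12 ± 0.08 SE, adjusted p = 4.25e-08). Normexp correction moved this difference to -0.67. Hspb8, the BAG3 partner, was the only member that rose. The Hspb8 probe (mm9 chromosome 5, 116859063 to 116859122, minus strand) read 2.83, 2.99 and 3.11 on WT and 3.57, 3.89 and 4.10 on HDAC4&5 arrays. The rise was 1.87-fold (log2 difference 0.90 ± 0.09 SE, 95% CI 0.71 to 1.09, adjusted p = 8.36e-07) and stood within each slide, at 0.98, 0.90 and 0.84.

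**Figure D2:**
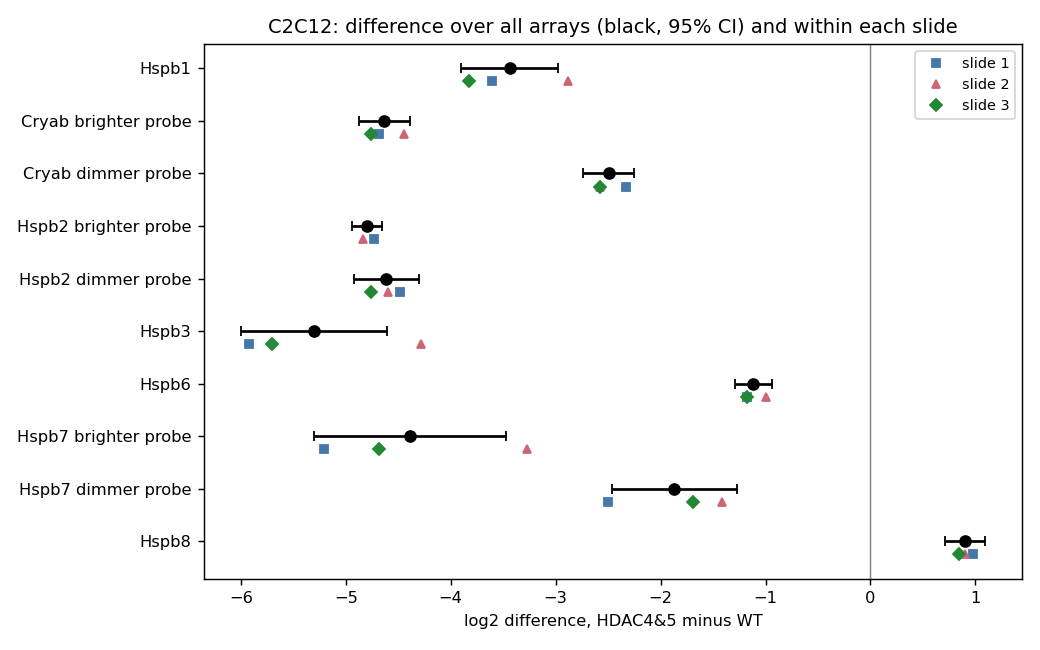
Log2 difference HDAC4&5 minus WT (horizontal axis) for each probe. Black points are the limma estimates over all arrays with their 95% CI, and coloured marks are the differences of means within slides 1, 2 and 3. Each mark lies left of 0 except those of Hspb8. For Hspb3 and the brighter Hspb7 probe slide 2 gave the smallest falls (-4.28 and -3.27), and the brighter Hspb2 probe has no value on slide 3.

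Cryab and Hspb2 are neighbours in opposite orientation on mouse chromosome 9, and the closest probes of both lie 1547 bases apart on mm9. Their brighter probes had log2 differences of -4.63 and -4.80. The 2 nearest protein-coding genes on each side, by RefSeq order, differed by less. The log2 difference was -0.37 for Dixdc1 (adjusted p = 0.0219) and -0.39 for 2310030G06Rik (adjusted p = 8.31e-05) on one side, and -0.76 for 1110032A03Rik (adjusted p = 5.01e-08) and -0.62 for Fdxacb1 (adjusted p = 1.71e-05) on the other. All 4 thus passed the threshold in the same direction, with falls under 1 log2 unit.

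The genes that work with small heat shock proteins moved in both directions in the C2C12 comparison. So did the array as a whole, where 36.5% of all 21477 probes tested rose and 31.8% fell. The counts of this and the other lists below stand beside those shares and were not tested against them. Of 12 genes of the BAG3 complex and chaperone-assisted autophagy tested, 2 rose and 3 fell, with a median log2 difference of 0.06. Synpo2, a Z-disc adaptor of BAG3, had the largest fall at -6.80 ± 0.06 (SE), from a mean relative log2 level of 4.19 to -2.61. Bag1, another BAG co-chaperone, fell by 0.77, and the ubiquilin gene Ubqln2 rose by 0.70. Bag3 itself had a log2 difference of -0.24 ± 0.11 (adjusted p = 0.0756) and did not pass. Hspb8 and Bag3, whose proteins act together, were thus at 0.90 and -0.24.

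Of 15 heat shock response genes tested, 5 rose and 4 fell, with a median of 0.20. Hsf1, the heat shock factor, had a log2 difference of 0.14 (adjusted p = 0.0911). Hspa1a, an inducible HSP70, went from 6 of 6 WT arrays above background to 0 of 6 and was at least 26.5-fold lower. Its near-identical copy Hspa1b had a log2 difference of -0.23 (adjusted p = 0.0487) on another probe, so the level of either copy is uncertain. The other falls past 1 log2 unit were of Hspa2 (-2.02) and Hspa1l (-1.27), which are HSP70 genes known for expression in testis. The rises were smaller, with the highest at 0.93.

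Of 8 kinase genes that phosphorylate small heat shock proteins or act upstream of them, 1 rose and 3 fell. Mapkapk3, a direct kinase of Hspb1, rose by 1.67 on the log2 scale, while the p38 genes Mapk11 and Mapk14 fell by 1.08 and 0.60. The Mapkapk3 probe was dim, with mean relative log2 levels of -4.86 on WT and -3.19 on HDAC4&5 arrays. It was well above background on 6 of 6 arrays of each, but near the WT floors of -6.14 to -5.20. Of 10 cytoskeletal partners tested, 1 rose and 6 fell, with a median of -0.92. Ttn, the gene of the sarcomere spring titin, was at least 212-fold lower. Des, which encodes the desmin filament that Cryab protects, fell by 8.45 (SE 0.19, saturated on 2 of 6 WT arrays), Ldb3 by 3.61 and Flnc, the filamin C gene, by 1.35. Of 7 myogenic factors tested, 6 fell and none rose. Myog was lower by a fitted log2 difference of -9.67, though it was well above background on 3 of 6 HDAC4&5 arrays. Myod1 was at least 261-fold lower and Mef2c at least 8.84-fold. Of the other small heat shock protein genes, 2 of 4 were tested, and Hspb9 fell by 1.24 while Hspb11 rose by 0.24. The fall of 6 small heat shock protein genes thus went with that of 6 myogenic factors and of all 10 muscle markers, and the part of these in the result was not tested. The fibroblast markers gave summed levels of 76.1 to 141 on WT and 94.2 to 110 on HDAC4&5 arrays, which overlapped, with 3 of 5 tested genes higher and 2 lower. The smooth muscle sums, whose list also holds Des, were 87.5 to 126 and 22.0 to 28.1, and the epithelial sums 3.56 to 4.38 and 0.292 to 0.355, both lower in HDAC4&5 cells with no overlap. Of the 3 epithelial genes tested, Krt19 (-7.65) and Krt7 (-1.77) fell and Krt8 (0.54) rose. Krt19, with a mean of 1.83 on WT arrays against -2.78 for Krt7, made up most of the WT sum.

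**Figure D3:**
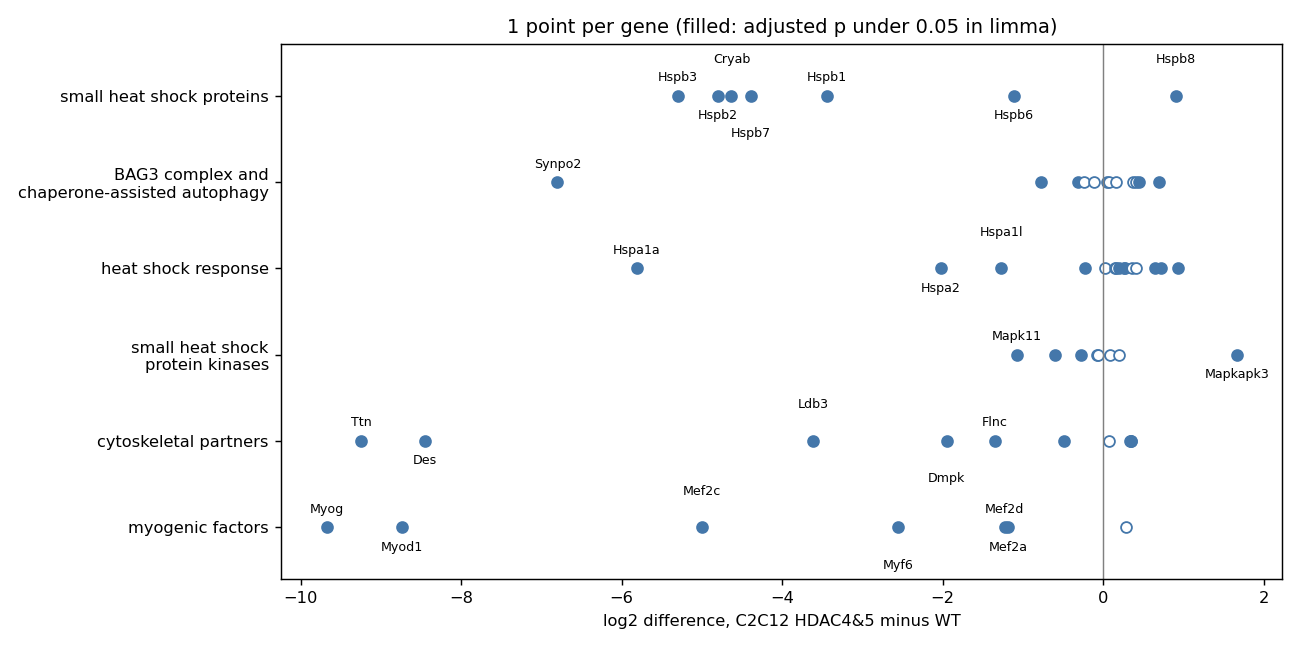
Log2 difference HDAC4&5 minus WT in C2C12 cells (horizontal axis) for the 7 small heat shock protein genes and the tested genes of 5 lists, 1 point per gene, filled where the adjusted p was under 0.05. Values of genes below background in the HDAC4&5 cells are fitted differences and not bounds. Hspb8 and Mapkapk3 stand right of 0, and the cytoskeletal and myogenic rows reach -9.25 and -9.67.

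The second comparison asked which genes differ in soleus muscle of db/db mice. None of the 7 genes passed the adjusted p of 0.05 in limma, where the smallest value among them was 0.741 for Hspb7. Over all 18538 probes tested 1 passed, 0.00539%, and 1192 did so at an unadjusted p of 0.05, among them the brighter Hspb7 probe. The point estimates were on the side of higher levels in db for Hspb7, Hspb6, Hspb8, Hspb2 and Hspb3. Those of Hspb1 and Cryab were near 0 with wide intervals. The groups did not overlap, with db higher, for the brighter Hspb7 probe and Hspb6, against 5.83% of all probes. The brighter Hspb2 probe had 1 Con array and its groups overlapped once marked spots were kept.

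The brighter Hspb7 probe read 5.27, 5.45 and 5.16 on Con replicates 1 to 3 and 6.46, 6.01, 6.29 and 5.63 on db replicates 1 to 4. Every db array was above every Con array, and none was saturated. The log2 difference was 0.80 (95% CI 0.10 to 1.51, unadjusted p = 0.0303, adjusted p = 0.741). The dimmer Hspb7 probe read 3.94, 3.91 and 3.02 in Con and 5.44, 4.75, 3.84 and 3.35 in db, so that its groups overlapped, with a difference of 0.73 (95% CI -0.51 to 1.96). Hspb6 read 5.98, 4.89 and 5.92 in Con and 6.94, 6.25, 6.44 and 6.21 in db, with db replicate 3 saturated. Its difference was 0.86 (95% CI -0.0046 to 1.73, adjusted p = 0.777), with no overlap between the groups.

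Hspb8 was higher on slide 5 than on slide 4 in both groups. It read 4.15 and 4.39 in Con and 5.04 and 5.30 in db on slide 4, and 5.90 in Con and 6.28 and 6.40 in db on slide 5. The db arrays were the higher ones within both slides, by 0.90 and 0.43, and the pooled log2 difference was 0.94 (95% CI -0.31 to 2.19, adjusted p = 0.859). With slide as a block the difference was 0.71 for Hspb8 (unadjusted p = 0.0106, adjusted p = 0.173). In that fit it was 0.84 and 0.94 for the Hspb7 probes (unadjusted p = 0.00951 and 0.00943, both adjusted p = 0.17) and 0.86 for Hspb6 (unadjusted p = 0.0422, adjusted p = 0.265). The brighter Hspb2 probe and Hspb3 dropped to 0.32 and 0.11 (unadjusted p = 0.403 and 0.827). None of these passed after adjustment, where 0.173% of all probes did, while 10.7% of probes were higher in db at an unadjusted p of 0.05 with the block. Within slides 4 and 5 the brighter Hspb7 probe was higher in db by 0.87 and 0.80, and Hspb6 by 1.16 and 0.40. Except for Hspb1, whose interval ended at 0.85, the unblocked intervals of the brighter or single probes reached past 1 log2 unit and did not exclude a rise of that size. With the slide block the intervals were narrower, at -0.49 to 0.60 for the brighter Cryab probe, -0.59 to 0.46 for Hspb1 and 0.22 to 1.20 for Hspb8.

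**Figure D4:**
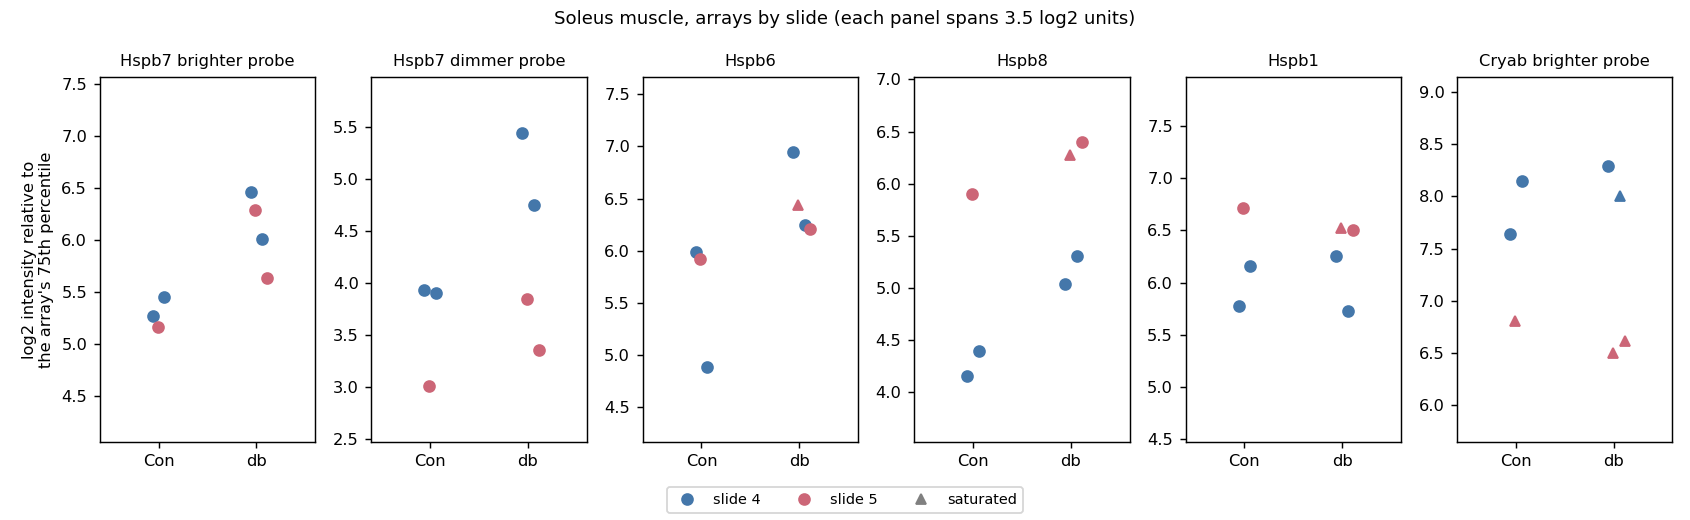
Relative log2 level (vertical axis, 3.5 log2 units in every panel) of 6 probes in soleus muscle of Con and db mice, 1 point per mouse, blue for slide 4 and red for slide 5, with triangles for saturated spots. The brighter Hspb7 probe and Hspb6 lie higher in db with no overlap, Hspb8 lies higher on slide 5 in both groups, and the brighter Cryab probe lies lower there.

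Hspb1 read 5.78, 6.16 and 6.72 in Con and 6.26, 5.73, 6.53 and 6.51 in db, a difference of 0.04 (95% CI -0.77 to 0.85). The brighter Cryab probe read 7.64, 8.15 and 6.80 in Con and 8.29, 8.00, 6.50 and 6.61 in db, a difference of -0.18 (95% CI -1.47 to 1.11). All 3 arrays of slide 5 and db replicate 2 were saturated at this spot, and the slide 5 arrays were the lowest of both groups. The dimmer Cryab probe, which was not saturated, also split by slide, with 1.37 and 1.37 in Con and 2.52 and 2.11 in db on slide 4 against -0.52 and then -0.87 and -0.48 on slide 5.

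For Hspb2 and Hspb3 several muscle spots carried an outlier mark. The brighter Hspb2 probe kept 1 Con array, at 5.01, against 5.15, 5.51, 6.61 and 6.66 in db (difference 0.97, 95% CI -0.82 to 2.77). With the marked spots kept, Con replicates 2 and 3 read 5.84 and 6.50, the groups overlapped and the difference was 0.20. The dimmer Hspb2 probe, measured on all 7 arrays, read 1.78, 2.14 and 0.96 in Con and 2.12, 2.25, 1.51 and 1.44 in db, with a difference of 0.21 (SE 0.39). Hspb3 read 4.99, 5.82 and 6.20 in Con and 6.55 and 6.08 in db replicates 3 and 4 (difference 0.64, 95% CI -0.55 to 1.84). With the marked spots of db replicates 1 and 2 kept, at 4.79 and 5.56, that difference was 0.07.

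The genes that work with small heat shock proteins gave no call in soleus muscle. None of the 12 BAG3 complex genes, 15 heat shock response genes, 8 kinases, 12 cytoskeletal partners or 6 myogenic factors tested passed the adjusted p. The smallest and largest log2 differences among the BAG3 complex genes were -0.68 and 1.43. The summed fibroblast marker level was 523 to 598 on Con and 317 to 459 on db arrays and did not overlap. All 7 markers were above background on every array. The means of Col1a1, Col1a2, Col3a1 and Thy1 were lower in db, at 6.94 in Con and 5.48 in db for Col1a1. Those of Dcn, Pdgfra and Lum were slightly higher in db, at 6.98 and 7.05 for Dcn. None of the 7 genes passed. The erythrocyte sums did not overlap either, at 164 to 370 on Con and 90.3 to 157 on db arrays. The slow fibre sums were 1049 to 2773 and 851 to 2304, and the fast fibre sums 764 to 2219 and 468 to 1634, both overlapping, as did the smooth muscle, adipocyte, macrophage, endothelial and epithelial sums. Within each slide, however, the fast fibre sum was lower on every db array than on every Con array, at 1655 and 2219 against 1634 and 1267 on slide 4 and 764 against 568 and 468 on slide 5. In that list Tnnt3, Tnni2 and Mylpf were saturated on all soleus arrays where they were measured. So were the slow fibre genes Myl2, Myl3 and Mb. The level of a saturated spot depends on the percentile of its array. On slide 5 that percentile was 555 for Con and 686 and 631 for db. Actn3 and Pvalb, with no saturated spot, had log2 differences of -1.94 and -1.92, and neither passed. Myh4, saturated on 1 array per group, had the largest difference of the fast fibre list, at -2.66 (adjusted p = 0.678, limma). Its mean in the sum was 7.57 in Con and 4.47 in db. Atp2a1, saturated on 1 array per group, was at 0.09 on a probe other than the one in the sum. The summed Atp2a1 probe had means of 6.27 in db and 5.75 in Con. The part of saturation in these sums was not tested. The adipocyte sums were also lower in db within each slide, at 385 and 440 against 259 and 311 and at 225 against 170 and 191. Of that list, Fabp4 was saturated on 3 of 4 db and 1 of 3 Con arrays, and Cfd on none. The bright genes Fabp4 and Cfd had lower means in db, at 7.14 against 7.60 and 4.83 against 6.74 in Con. Those of Retn and Lipe were lower too. The means of Lep, Cidec, Plin1 and Adipoq were higher in db, at -0.26 against -3.68 for Lep and 3.75 against 2.56 for Cidec. The adipocyte genes thus moved in both directions. The part of these cell types in the values of the small heat shock protein genes was not tested.

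The levels in whole muscle and in cultured cells were set side by side to order the 4 groups for each probe. In soleus Con, 6 genes were higher than in C2C12 WT at an adjusted p of 0.05, and Hspb1 could not be placed, since its spot was saturated on every WT array (means of 6.22 and 6.21). Of all 22638 probes tested, 34.4% were higher in soleus Con and 32.3% were higher with no overlap. Hspb7, Hspb3 and Hspb6 stood farthest apart, by 7.86, 7.79 and 6.78 on the log2 scale (SE 0.14, 0.23 and 0.24), which is 233-fold, 222-fold and 110-fold. Cryab, Hspb8 and Hspb2 differed by 1.86, 1.83 and 1.55 (adjusted p = 0.000143, 0.000517 and 0.00125), with 1 Con array behind the brighter Hspb2 probe, so that its call holds no Con spread and is assumed to vary like WT. The dimmer Hspb2 probe, on all arrays, gave 1.92 (adjusted p = 3.50e-05). The dimmer Cryab probe did not follow its brighter one, with a log2 difference of -0.30 (adjusted p = 0.484), and without Con replicate 3 it was 0.33 (adjusted p = 0.0399). Tissue, slide and RNA extraction differ together between cells and muscle and cannot be told apart.

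In the resulting order, HDAC4&5 cells were lowest for all members except Hspb8. For Hspb3, Hspb6 and Hspb7 the order was HDAC4&5, WT and then soleus, where Con and db overlapped for Hspb3 and did not overlap for Hspb6 and the brighter Hspb7 probe. For Cryab and Hspb2 the brighter probes gave the same order, with Con and db overlapping for Cryab. For Hspb1 the ranges of WT, Con and db overlapped. For Hspb8 the order was WT, HDAC4&5 and then soleus, and the highest HDAC4&5 array (4.10) lay just below the lowest Con array (4.15).

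For each member, the genes whose levels followed it most closely over the arrays were ranked by Pearson's r among 12270 or, for Hspb2 and Hspb3, 12271 genes. These r values describe arrays that fall into 4 groups and share tissue and slide. Cryab was followed by Myom2, an M-band gene (r = 0.997), Synpo2 (0.996) and Trpv4, a calcium channel gene (0.992), over 19 arrays. For Hspb1 it was Des (0.98), Nbl1 (0.977) and C230098O21Rik (0.977). Hspb2, over 15 arrays, was followed by Cavin4, a gene of muscle caveolae (0.998), Ank1 (0.998) and Rcan2, a calcineurin regulator (0.995).
Hspb3, over 17 arrays, was followed by Mef2c (0.998), the ADP-ribosyltransferase gene Art1 (0.998) and Slc35g1 (0.997). Hspb7 was followed by Arap2, Art1 and Ndrg2 (all 0.996), and Hspb6 by a transcript with no symbol and by the nuclear receptor gene Nr1h3 (both 0.996). Hspb8 had other companions, the metalloprotease gene Adamts1 (0.985), the lysosomal enzyme gene Idua (0.983) and Dtnbp1 (0.975).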

How the data were processed

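The authors scanned each 1-colour array and deposited spot intensities from Agilent Feature Extraction 9.5.1.1, named in the submitters' processing notes. Background had been subtracted and a spatial trend removed, with no scaling across arrays. A matrix deposited by the authors holds the ratio of processed intensity to a constant per array. Its columns were used by group only, since 6 of the 7 soleus columns did not match the scanner file of their label. Here log2 of the processed intensity minus the 75th percentile of each array was taken, spots marked as outliers were left out, saturated spots were kept and spots of a probe were averaged. A probe entered the test where most of its unmarked spots were well above background on every measured array of either group compared. The test was limma 3.58.1 (R 4.3.3), with Benjamini-Hochberg adjustment over all probes tested and a threshold of 0.05. The brighter probe stood for its gene in counts. The steps were tested on simulated data. RefSeq accessions named 27198 probes. The precision is limited by the number of arrays, 3 to 6 per group. Replicates of a group correlated at 0.985 or more in WT, 0.978 in HDAC4&5, 0.954 in Con and 0.915 in db. The highest r was 0.993, so no array was a copy of another. Whether some arrays repeat a sample was not tested.

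Arrays of both groups on the same slide deviated together from their group means. This held for the same replicate number (r over probes of 0.229 to 0.587 in C2C12, 0.354 to 0.660 in soleus). It held alike for other numbers within a slide (0.221 to 0.544 and 0.262 to 0.730), so no pairing by number beyond the slide was seen. Pairs from different slides did not (-0.484 to 0.0501 and -0.638 to -0.319). The members and lists were chosen with earlier results of these data known. Genes named are the members, list genes with the 3 largest differences past the threshold in C2C12 together with Bag3, Hsf1, Des and Flnc, the 3 genes most correlated with each member (1 of them is not reported here), and the neighbours of Cryab and Hspb2. Hspa1b was named after its values were seen. Keeping outlier spots, taking the percentile without them, and slide as a block with them kept were alternatives chosen after seeing the data.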

Additional observations from a re-analysis of the deposited data

Results flagged for a closer look

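In 3 of the 29 sets of arrays tested for a single outlying array, 1 array stood apart from the rest of its group, where chance gives about 5% of sets. The brighter Hspb7 probe read -4.78 on HDAC4&5 replicate 4, above the other 5 arrays, and the probe was not well above background on any of them. The lowest signal well above background on that array was -4.57, the highest such floor among the HDAC4&5 arrays. The same probe read -2.85 on WT replicate 6, below the other WT arrays. The dimmer Cryab probe read -1.92 on HDAC4&5 replicate 3, below the other 5 arrays, while the brighter Cryab probe on that array read 0.90.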

How the results depend on the processing

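In C2C12 the same 7 calls, 6 lower and 1 higher, were made under quantile normalization, normexp, no filter, outlier spots kept, the methods' t-test, a fold threshold of 1.5, 1 probe per gene, slide or replicate number as a block, and without any 1 of the 12 arrays. With the replicate block 7 members were called in C2C12 and 0 in soleus, where 5 members could be fitted, and the block changed no call. Where fewer members could be tested, all of those were called: 5 above background in both groups, 6 without saturated spots and 4 in the deposited matrix. Normexp turned the dimmer Hspb7 probe to 0.062. In soleus 1 member was called with all 19 arrays in 1 fit (Hspb6, 0.86, adjusted p = 0.0288), 1 at an unadjusted p and 1 by the methods' t-test unadjusted, and 0 by the t-test after adjustment. Differences near 0 changed sign there. Without saturated spots the brighter Cryab probe was at 0.40 and Hspb1 at -0.054, with slide as a block at 0.054 and -0.065, also with outlier spots kept, and with the replicate block at 0.068 and -0.047. With that slide block and outlier spots kept, the brighter Hspb2 probe was at -0.00086 and Hspb3 at -0.094. Leaving out 1 soleus array at a time gave -0.54 to 0.13 for the brighter and -0.55 to 0.65 for the dimmer Cryab probe, -0.18 to 0.29 for Hspb1 and -0.13 to 0.46 for the dimmer Hspb2 probe. For Con against WT, Hspb1 was at -0.84 after quantile normalization (then called lower), -0.26 after normexp and -0.0082 with the percentile over spots without outliers, and at -0.25 to 0.22 with 1 array left out, and the dimmer Cryab probe at -0.62 to 0.33. In the deposited matrix that probe was called lower (-1.11, adjusted p = 0.00277). Without Con replicate 1, which leaves no Con value for the brighter Hspb2 probe, 5 members were called.

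Over all probes, the C2C12 calls went from 14672 to 8281 with all arrays in 1 fit and 8029 at a fold of at least 1.5. The soleus calls went from 1 to 1400 with all arrays in 1 fit, 1192 at an unadjusted p, 1401 by the unadjusted and 3 by the adjusted t-test, 32 with the slide block (27 with outlier spots kept), 3 after quantile normalization, 2 with the percentile without outlier spots, and 0 with normexp, with the matrix, with the stricter filter and without each of 5 arrays in turn. Con against WT went from 16803 to 32617 with no filter. The split of higher to lower calls, 7834 to 6838 in C2C12, was 4149 to 6434 in the matrix, and 7777 to 9026 in Con against WT became 9831 to 6842 with normexp. The median difference of all probes moved from 0.055 to 0.16 with normexp and -0.09 in the matrix in C2C12, from 0.021 to 0.12 after quantile normalization and 0.25 in the matrix in soleus, and from -0.16 to -0.44, 0.31 and -0.31 with quantile normalization, normexp and the matrix in Con against WT. Signal over background limits Hspb3 and Hspb7 in the HDAC4&5 cells to bounds, and saturation limits Hspb1 in WT and several muscle spots.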

Other observations

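The deposited matrix has blank cells for several of these probes. It held 0 of 6 values for Hspb1 in WT, where the spot was saturated on every scanner array, and 0 of 6 for Hspb3 and the dimmer Hspb7 probe in HDAC4&5 cells, where neither was well above background. The brighter Hspb7 probe had 1 of 6 values there. The brighter Cryab probe had 0 of 3 values in Con and 0 of 4 in db, although on the scanner arrays it was saturated in 1 of 3 and 3 of 4.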
